A study of Mus musculus with 9 samples.

Results

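Prostaglandins are short-lived lipid signals made from arachidonic acid. A phospholipase frees the fatty acid from membranes, a cyclooxygenase (the product of Ptgs1 or of the inducible Ptgs2) turns it into a common intermediate, and a terminal synthase makes the final prostaglandin, which acts through receptors coupled to G proteins. In bone, prostaglandin E2 made by osteoblasts and stromal cells can drive both formation and resorption, and glucocorticoids such as dexamethasone are known to hold back Ptgs2. The genes described here are the synthase genes Ptgds, Ptgs1, Ptgs2, Ptges and Ptgis and the receptor genes Ptger1, Ptger2, Ptger3, Ptger4 and Ptgfr, 10 genes out of the 22180 that were compared. They were chosen by name, around the rise of Ptgds in these arrays, and each gene takes the probe sets that the annotation assigns to it alone. That gave 8 measured genes with 1 probe set each. Ptgs1 and Ptger1 had no such probe set and were not analysed here.

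The samples are total RNA of MSC2, a clonal line of mesenchymal stromal cells taken from marrow of C57BL/6 mice aged 6 weeks, on 9 biotin-labelled expression arrays. There are 3 arrays of undifferentiated cells, 3 of cells after 14 days and 3 of cells after 28 days of osteoblastic induction. Undifferentiated cells were kept in alpha-MEM without ascorbic acid. Induction began at confluence, in DMEM with 0.1 µM dexamethasone, 0.2 mM ascorbic acid phosphate, 10 mM beta-glycerophosphate and 1 mM pyruvate, and both media held 10% serum. All arrays come from the same clone, so p-values measure the spread between cultures of that clone, and medium, confluence and time in culture cannot be told apart from induction. The values are log2 signals from which each probe set's median over the 9 arrays had been taken away, so 0 is the middle array of that gene and no level is kept: a gene that stays near 0 may be steady or not expressed. For arrays, their number limits the precision.

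Some facts on the whole series bear on the genes below. In the arrays of the undifferentiated, day 14 and day 28 groups, Mki67, a marker of dividing cells, averaged 1.95, -0.02 and -0.97. The average for Fkbp5, a glucocorticoid target, was -1.22, 0.20 and 0.05 in the same order. Of 7 osteoblast markers, Alpl, Pth1r and Omd rose at both times, while Sp7, Bglap, Ibsp and Dmp1 did not pass the test at either. Of all genes, 18.2% were called up at day 14 and 20.4% at day 28. After quantile normalization again, 2 of the 7 markers were called up at each time. In such bulk cultures, fewer cells of a type and less RNA per cell cannot be told apart.

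Sequences at or near an annotated transcript start are shown for 3 of the genes that moved most, to give the bases there. They come from RefSeq (GRCm38.p6), whose promoter table held 8 of the 10 genes, Ptgis not among them. Capitals mark matches to short motifs that were picked with the sequences in view, searched on both strands: the AP-1 element TGACTCA in Ptgds, and the cyclic AMP response element half-site TGACG (read on this strand as CGTCA) and the E-box CACGTG in Ptgs2. The Ptgds and Ptger4 sequences are the 250 bases before the start that the table uses (chr2:25469750-25469999 and chr15:5244188-5244437, both on the minus strand). For Ptger4 that start is the outer end of the annotated gene. For Ptgds it lies inside the annotated gene, which reaches further upstream, so its sequence is that of an inner start. That of Ptgs2 is a stretch of 30 bases that lies at bases 3 to 32 after the annotated start (chr1:150100033-150100062, plus strand).
Ptgds: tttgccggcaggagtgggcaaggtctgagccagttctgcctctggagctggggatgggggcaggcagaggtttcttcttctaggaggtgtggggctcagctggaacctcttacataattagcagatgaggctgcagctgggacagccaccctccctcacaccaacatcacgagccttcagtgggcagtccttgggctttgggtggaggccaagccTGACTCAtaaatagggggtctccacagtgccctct
Ptger4: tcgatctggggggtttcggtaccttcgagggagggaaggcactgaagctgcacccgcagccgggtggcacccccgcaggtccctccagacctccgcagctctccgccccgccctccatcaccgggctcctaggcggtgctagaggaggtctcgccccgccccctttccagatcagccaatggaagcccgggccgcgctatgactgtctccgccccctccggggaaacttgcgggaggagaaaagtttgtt
Ptgs2: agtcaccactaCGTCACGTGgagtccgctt

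The Ptgds match spans bases -35 to -29 from that inner start, and 5.2% of the 32851 promoter windows of 300 bases hold the same letters. In Ptgs2 the half-site and the E-box share 2 bases. The half-site occurs in 20.8% of the windows and the E-box in 7.15%. The glucocorticoid receptor half-site AGAACA, found in 19.0% of windows, had a match in Ptgs1, Ptges and Ptger2, and none in the windows of Ptgds, Ptgs2 or Ptger4. Neither the full cyclic AMP response element TGACGTCA (1.79% of windows) nor the TATA box letters TATAAA (13.6%) matched in any of the 8 windows. A match describes letters and does not by itself show a binding site.

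Ptgs2, the inducible cyclooxygenase gene (probe set 17218060), was lower at both induced times and lowest at day 14. Its centred log2 signal was 0.64, 0.63 and 0.67 in the undifferentiated arrays, -0.47, -0.60 and -0.58 at day 14, and 0.00, -0.06 and 0.11 at day 28. No array of any group lay within the range of another group. At day 14 Ptgs2 fell to 0.437 times its undifferentiated level, a log2 difference of -1.19 (SE 0.05, limma adjusted p = 3.85e-08). At day 28 it stood at 0.647 times that level (log2 difference -0.63, SE 0.05, limma adjusted p = 4.03e-06). Between the induced times it rose 1.48-fold (log2 difference 0.57, SE 0.05, limma adjusted p = 0.000161), so the fall was smaller at day 28. Quantile normalization applied again forces the same spread on every array. The values were already centred per probe set, so an array's spread includes how far it truly lies from the middle array. The step can thus shrink or widen real differences, and a call lost under it cannot show that the difference is unsound. The step kept these signs but moved the log2 differences to -1.89 at day 14, -0.35 at day 28 (limma adjusted p = 0.303, a call lost) and 1.54 between the induced times. It also changed the spread of the differences over all genes, which is given at the end.

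Ptgds encodes lipocalin-type prostaglandin D synthase, which makes prostaglandin D2 and, as a lipocalin, also carries small lipophilic molecules. It is well known from brain meninges and body fluids. Its probe set (17382592) read -4.42, -4.65 and -4.41 in undifferentiated arrays, -0.04, 0.00 and 0.15 at day 14, and 0.10, 0.17 and 0.18 at day 28. All induced arrays lay far above all undifferentiated ones, and the ranges of the induced groups overlapped each other. The mean was 0.04 ± 0.10 at day 14, against -4.49 ± 0.14 in undifferentiated cells (SD, n = 3), which is 23.1-fold higher. At day 28 the mean was 0.15 ± 0.04, 25.0-fold above undifferentiated cells. Because the set was chosen for this rise, these values are a description and carry no test. Among all 22180 genes, Ptgds ranked as number 4 by its log2 difference at day 14 and as number 9 at day 28. It ranked as number 2930 between the induced times, where the mean difference was 0.11. With quantile normalization again, its log2 differences were 2.28 at day 14 and 2.37 at day 28, against 4.53 and 4.65 as deposited.

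Ptgis, the prostacyclin synthase gene, which is best known from blood vessels, rose at both times by a modest amount. Its probe set (17394679) read -0.65, -0.66 and -0.68 in undifferentiated arrays, -0.06, 0.00 and 0.09 at day 14, and 0.01, 0.07 and 0.11 at day 28. The undifferentiated arrays lay apart from all induced arrays. The rise was 1.59-fold at day 14 (log2 difference 0.67, SE 0.05, limma adjusted p = 1.39e-06) and 1.65-fold at day 28 (log2 difference 0.73, SE 0.05, limma adjusted p = 6.05e-07). With quantile normalization again the log2 differences were 0.40 and 0.44, and against a 1.5-fold change neither passed (limma's treat, adjusted p = 0.626 and 0.0849). Between the induced times Ptgis did not pass the test (0.06, 95% interval -0.05 to 0.16).

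Ptges, the gene of the inducible prostaglandin E synthase that works with Ptgs2, passed no test. Its arrays (probe set 17383712) read 0.00, -0.03 and 0.00 in undifferentiated cells, -0.10, -0.02 and 0.00 at day 14, and -0.11, 0.18 and 0.10 at day 28. The groups overlapped. The log2 differences from undifferentiated cells were -0.03 at day 14 (95% interval -0.19 to 0.12) and 0.07 at day 28 (-0.09 to 0.22). Without day 28 replicate 1, the lowest of its group, the difference at day 28 became 0.15 (limma adjusted p = 0.037), and over the 18 alternatives the adjusted p of that difference ran from 0.037 to 1.

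**Figure D1:**
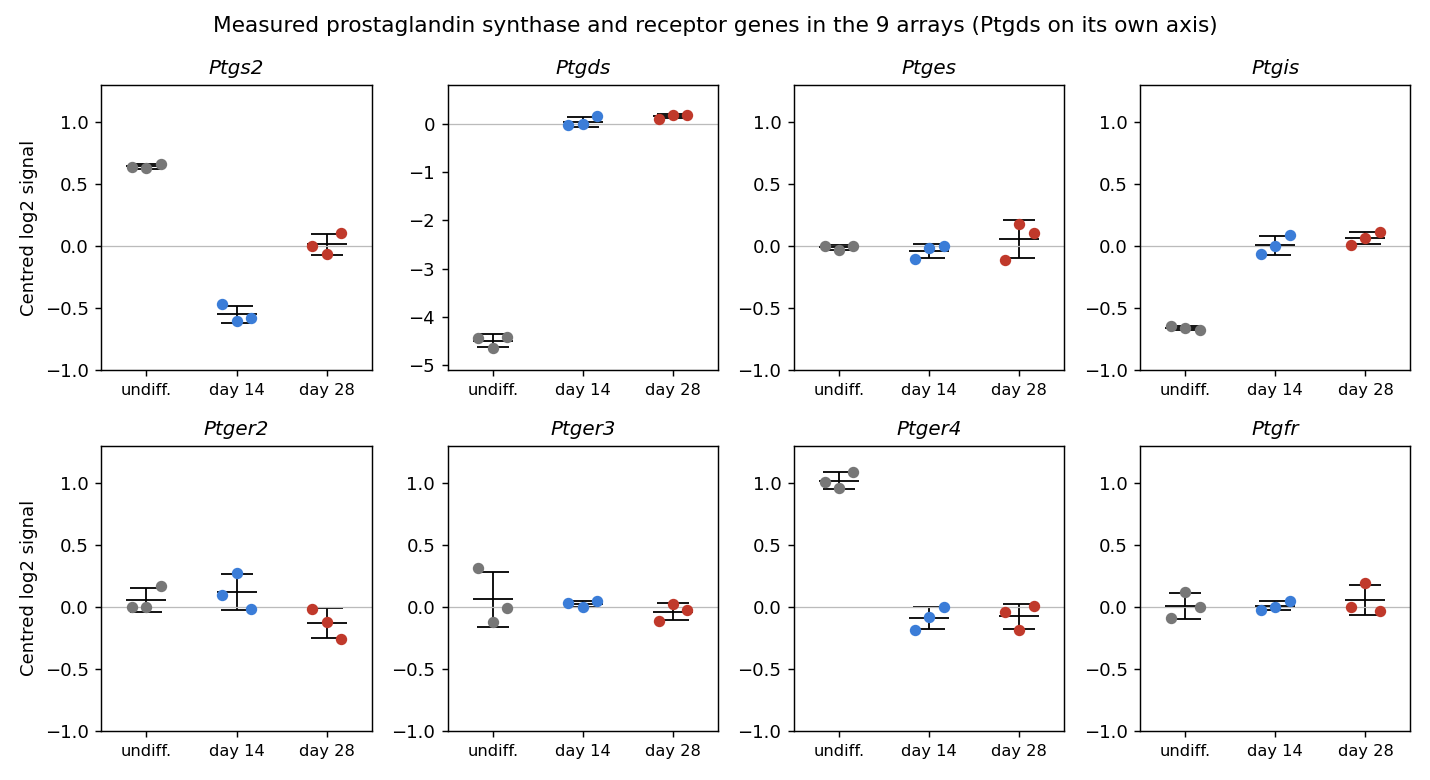
Centred log2 signal (y axis) of the 8 measured genes in undifferentiated, day 14 and day 28 cells, with a point for each of the 3 arrays of a group and black bars for the mean and SD. Ptgds has an axis of its own, with induced arrays near 0 and undifferentiated arrays about -4.5, while Ptgs2 and Ptger4 are highest in undifferentiated arrays.

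Among the receptors, Ptger4 was lower after induction. It encodes the EP4 receptor for prostaglandin E2, which raises cyclic AMP and takes part in the bone-forming response to that prostaglandin in rodents. Its probe set (17315718) read 1.01, 0.95 and 1.09 in undifferentiated arrays, -0.18, -0.09 and 0.00 at day 14, and -0.04, -0.19 and 0.01 at day 28. All induced arrays lay below all undifferentiated arrays, and the induced groups overlapped. It fell to 0.464 times the undifferentiated level at day 14 (log2 difference -1.11, SE 0.07, limma adjusted p = 3.04e-07) and to 0.469 times at day 28 (-1.09, SE 0.07, limma adjusted p = 2.61e-07). The difference between the induced times was 0.02 (95% interval -0.13 to 0.16). With quantile normalization again, the falls were -0.71 and -0.64, both still past the test.

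Ptger2, the gene of EP2, the other prostaglandin E2 receptor that raises cyclic AMP, passed no test. It read 0.00, 0.00 and 0.16 in undifferentiated arrays, 0.10, 0.27 and -0.02 at day 14, and -0.02, -0.12 and -0.26 at day 28. Every day 28 array lay below every array of the other groups, though the nearest pair both round to -0.02, and the day 14 and undifferentiated arrays overlapped. The log2 differences were 0.06 at day 14 (limma adjusted p = 0.657), -0.19 at day 28 (95% interval -0.38 to 0.00, limma adjusted p = 0.112) and -0.25 between the induced times (-0.44 to -0.06, limma adjusted p = 0.121).

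Ptger3, whose product EP3 mostly lowers cyclic AMP, ranged over 0.43 across the 9 arrays, from -0.12 to 0.31, with both extremes in undifferentiated cells. Its log2 differences were -0.04 at day 14 (95% interval -0.25 to 0.17), -0.10 at day 28 (-0.31 to 0.11) and -0.06 between the induced times. Ptgfr, the receptor gene for prostaglandin F2 alpha, ranged over 0.28, and its differences were -0.001 (-0.16 to 0.15), 0.04 (-0.11 to 0.20) and 0.04. The groups of Ptger3 and of Ptgfr overlapped in each comparison. Differences of a size inside these intervals remain compatible with the arrays.

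Counted over the 7 measured genes other than Ptgds, 3 were called at day 14 against undifferentiated cells, 1 up and 2 down. Of all genes 35.7% were called there, 18.2% up and 17.5% down. At day 28 against undifferentiated cells the same 3 genes were called, 1 up and 2 down, where 39.9% of all genes were called, 20.4% up and 19.5% down. Between day 28 and day 14 the call was that of Ptgs2, 1 of 7 genes, up, where 7.39% of all genes were called and 2.72% of all genes were called up. The shares called in the comparisons with undifferentiated cells are thus near those of all genes. The falls of Ptgs2 and Ptger4 at day 14 exceed 2-fold, a size that 4.71% of all genes passed with a call. Groups did not overlap in 3 of the 7 genes at day 14, 4 at day 28 and 2 between the induced times, against 44.8%, 46.6% and 24.4% of all genes. The median log2 difference of the 7 genes was -0.03 at day 14, -0.10 at day 28 and 0.04 between the induced times, and that of all genes was 0.005, 0.02 and 0.002. The undifferentiated arrays serve as controls at both times, so those comparisons are not independent.

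**Figure D2:**
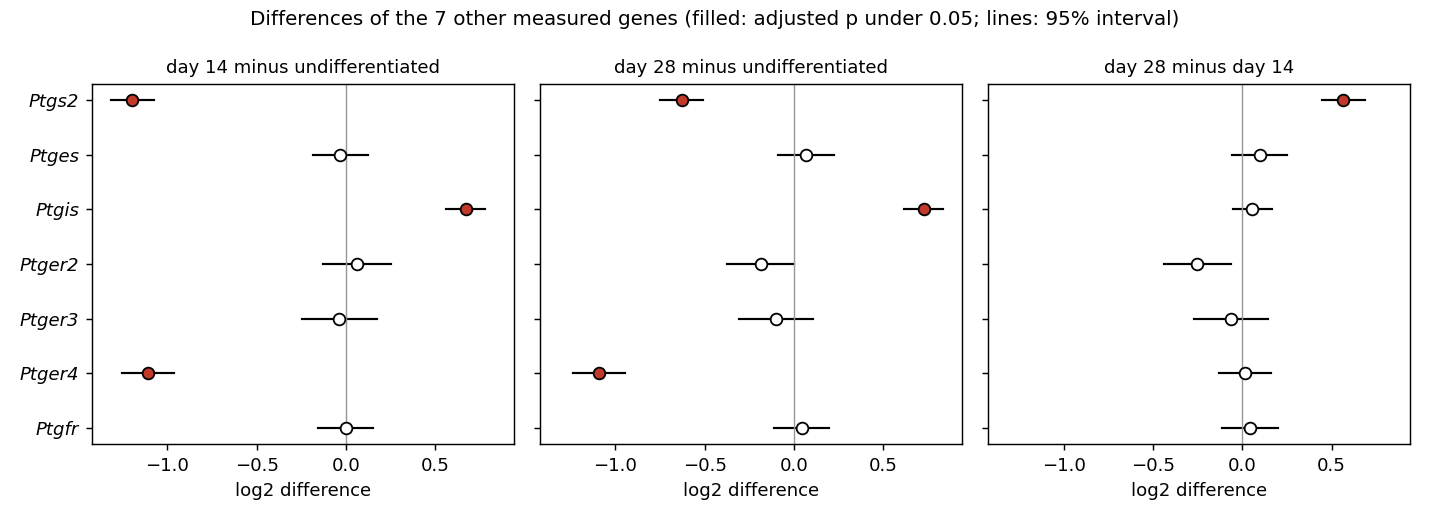
Log2 differences (x axis) of the 7 measured genes other than Ptgds in the 3 comparisons, with 95% intervals as lines and filled points for an adjusted p under 0.05. Ptgs2 is filled in all 3 panels, Ptgis and Ptger4 in the panels against undifferentiated cells.

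The genes whose 9 array values were nearest to those of Ptgds, by the root mean square difference on the centred log2 scale, were Aspn (0.15), Hp (0.23), Mmp8 (0.27), Angptl7 (0.27) and Mamdc2 (0.29). Gene-model, clone, pseudogene and small-RNA names were left out of this ranking and of those below. Aspn encodes asporin, a small leucine-rich matrix protein. Hp encodes haptoglobin, which binds free haemoglobin, and Mmp8 a collagenase best known from neutrophils. Their rises at day 14 ran between 4.11 (Mmp8) and 4.28 (Mamdc2) on the log2 scale, and at day 28 from 4.09 (Mamdc2) to 4.71 (Angptl7). For Ptgs2 the nearest were H4c9 (0.12), a histone gene with close copies and so of uncertain value, Nr4a1 (0.15), an immediate early nuclear receptor gene, and Grb14 (0.18), which encodes an adaptor of the insulin receptor. Nr4a1 read 0.40, 0.34 and 0.52 in undifferentiated arrays, -0.45, -0.54 and -0.51 at day 14, and 0.00, 0.06 and 0.00 at day 28, the same order of groups as in Ptgs2. Ptgis was nearest to Rab5b (0.03), Idua (0.04) and Natd1 (0.05), and Ptger4 to Adgra2 (0.06), Unc5b (0.07) and Erdr1 (0.07). These genes were picked for their likeness, which is a description over 9 arrays in 3 groups.

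**Figure D3:**
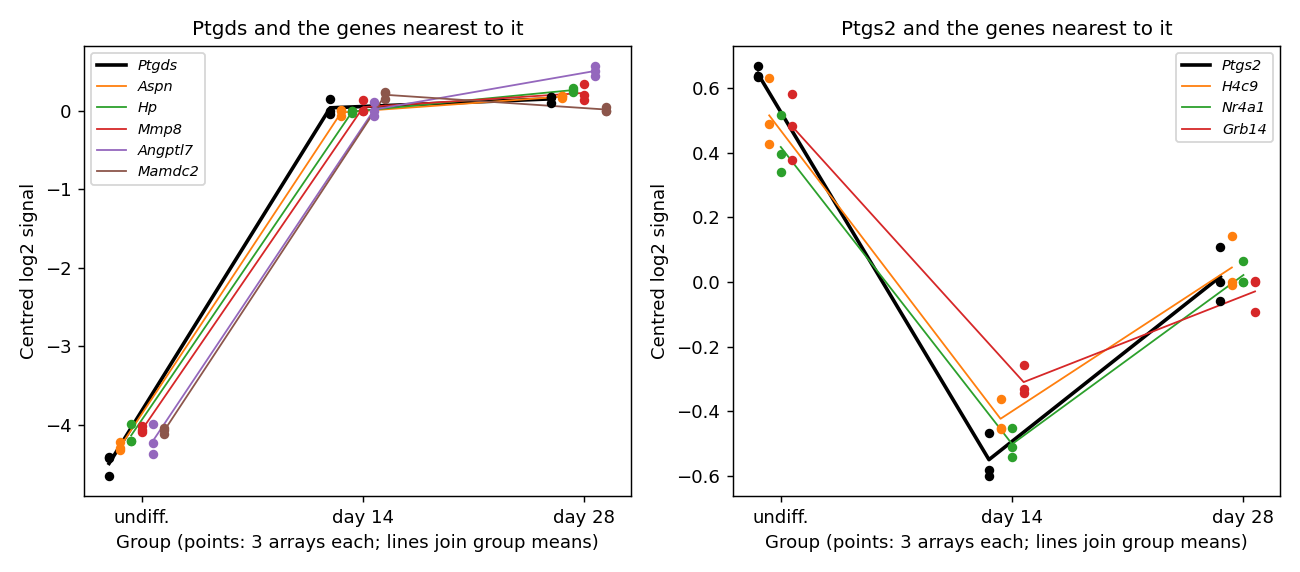
Centred log2 signal (y axis) of Ptgds with its 5 nearest genes and of Ptgs2 with its 3 nearest genes in undifferentiated, day 14 and day 28 cells, with a point for each array and lines joining group means. The Ptgds panel shows a single step between undifferentiated and induced arrays, and the Ptgs2 panel a low at day 14 and middle values at day 28.

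The rest of the pathway was described by lists of genes. Each count is to be read against all genes, of which 18.2% rose and 17.5% fell at day 14, and 20.4% rose and 19.5% fell at day 28, with a median log2 difference of 0.005 and 0.02. Quantile normalization again made the size of 14 of the 25 called differences of named list genes at day 14, and 13 of 28 at day 28, over 1.5 times smaller, and 1 at day 14, that of Nr4a1, over 1.5 times larger. Among the phospholipases, 6 of 19 measured genes rose and 2 fell at day 14, and 8 rose and 1 fell at day 28 (median log2 difference 0.08 and 0.07). The largest change was that of Pla2g7, which encodes the platelet-activating factor acetylhydrolase and is not an arachidonic acid supplier, with 4.67-fold at day 14 and 5.39-fold at day 28 (log2 2.22 and 2.43, SE 0.04 each, limma adjusted p = 2.11e-10 and 5.07e-11). Its log2 differences were 1.13 and 1.37 with quantile normalization again. Pla2g4c, a cytosolic phospholipase gene, fell at both times, with log2 differences of -0.67 and -0.54. The secreted phospholipase genes Pla2g2e and Pla2g12a rose by 0.45 and 0.27 at day 14 and by 0.54 and 0.40 at day 28. Pla2g4a, the main source of arachidonic acid for prostaglandins, rose by 0.15 at day 14 (limma adjusted p = 0.0279), and its difference of 0.07 at day 28 did not pass the test.

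Of the other terminal synthases, 2 of 7 measured genes rose at both times and 0 fell (median log2 difference -0.01 at day 14 and 0.08 at day 28). They are Cbr1, a carbonyl reductase gene that can convert prostaglandin E2 to F2 alpha, with 0.64 at day 14 and 0.62 at day 28 on the log2 scale, and Ptges2, with 0.30 and 0.35. Hpgds, the blood-cell type of prostaglandin D synthase, differed by -0.01 at both times and passed no test (limma adjusted p = 0.874 at day 14 and 0.855 at day 28). Its induced arrays all read exactly 0 and it ranged over 0.03, so a steady gene cannot be told from one not expressed. Of 4 other receptor genes, 1 rose and 1 fell at both times (median 0.07 and 0.15). Ptgfrn, a regulator of the F2 alpha receptor rather than a receptor, was up by 0.43 at day 14 and 0.72 at day 28, and Tbxa2r, the thromboxane receptor gene, was at -0.19 and -0.25. The prostaglandin D2 receptor gene Ptgdr differed by -0.002 and 0.07 and passed no test.

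Of the 6 measured genes of prostaglandin transport and breakdown, 4 rose and 1 fell at both times (median log2 difference 0.30 at day 14 and 0.32 at day 28). Ptgr1, Ptgr2 and Zadh2, which encode prostaglandin reductases of the breakdown route, rose by 0.95, 0.76 and 0.43 at day 14 and by 1.05, 0.54 and 0.47 at day 28. After quantile normalization again, Ptgr1 was at 0.54 and 0.64 and Ptgr2 at 0.83 and 0.32. The uptake transporter gene Slco2a1 rose by 0.18 and 0.16, and quantile normalization again ended its call at day 28. Abcc4, an export pump gene, was at -0.46 and -0.54. Hpgd, the first enzyme of breakdown, was at -0.03 and 0.0007 and passed no test.

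In the lipoxygenase and leukotriene arm, which uses the same fatty acid, 4 of 13 measured genes rose and 0 fell at either time (median log2 difference 0.04 at day 14 and 0.07 at day 28). Cysltr1, a leukotriene receptor gene, rose by 0.97 at day 14 and 1.10 at day 28, and Lta4h, which makes leukotriene B4, by 0.91 and 0.66. Alox12 rose by 0.45 and 0.37. Alox8 was at 0.04 at day 14, where it passed no test, and rose by 0.23 at day 28. Among 18 other lipocalins, the protein family of Ptgds, 2 rose and 1 fell at day 14, and 5 rose and 0 fell at day 28 (median 0.04 and 0.06). Lcn2, an iron-siderophore carrier gene, rose by 0.77 and 1.53 and C8g by 1.12 and 1.22. Under quantile normalization again, Lcn2 was at 0.38 and 1.51 and C8g at 0.59 and 0.70. The differences of Apod and Orm1 at day 14, 0.09 and 0.11, passed no test. At day 28 Apod rose by 0.50 and Orm1 by 0.44.

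Genes that answer cyclic AMP, the messenger of the EP2 and EP4 receptors, moved in both directions: of 10 measured, 2 rose and 6 fell at day 14, and 3 rose and 5 fell at day 28 (median log2 difference -0.35 and -0.21). Pde4b, which breaks cyclic AMP down, was at -1.02 and -0.91, the kinase gene Sik1 at -0.79 and -0.95, and Nr4a1 at -0.92 and -0.40. With quantile normalization again Nr4a1 was at -1.59 and -0.23, Sik1 at -0.43 and -0.65 and Pde4b at -0.71 and -0.50. Fos rose by 0.49 and 1.01. Of 12 glucocorticoid-responsive genes 9 rose and 0 fell at day 14, and 10 rose and 1 fell at day 28 (median 1.19 and 1.27). Hsd11b1, which regenerates active glucocorticoid, rose by 2.94 and 3.27, Zbtb16 by 1.51 and 1.89 and Klf9 by 1.80 and 1.88 on the log2 scale, and Tsc22d3 rose 2.83-fold and 3.14-fold. Quantile normalization again gave smaller log2 differences, 1.45 and 1.91 for Hsd11b1, 0.80 and 1.35 for Zbtb16, 0.93 and 1.01 for Klf9 and 0.79 and 0.94 for Tsc22d3. Dexamethasone was in the induction medium at both times, and its part in the prostaglandin genes was not tested.

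**Figure D4:**
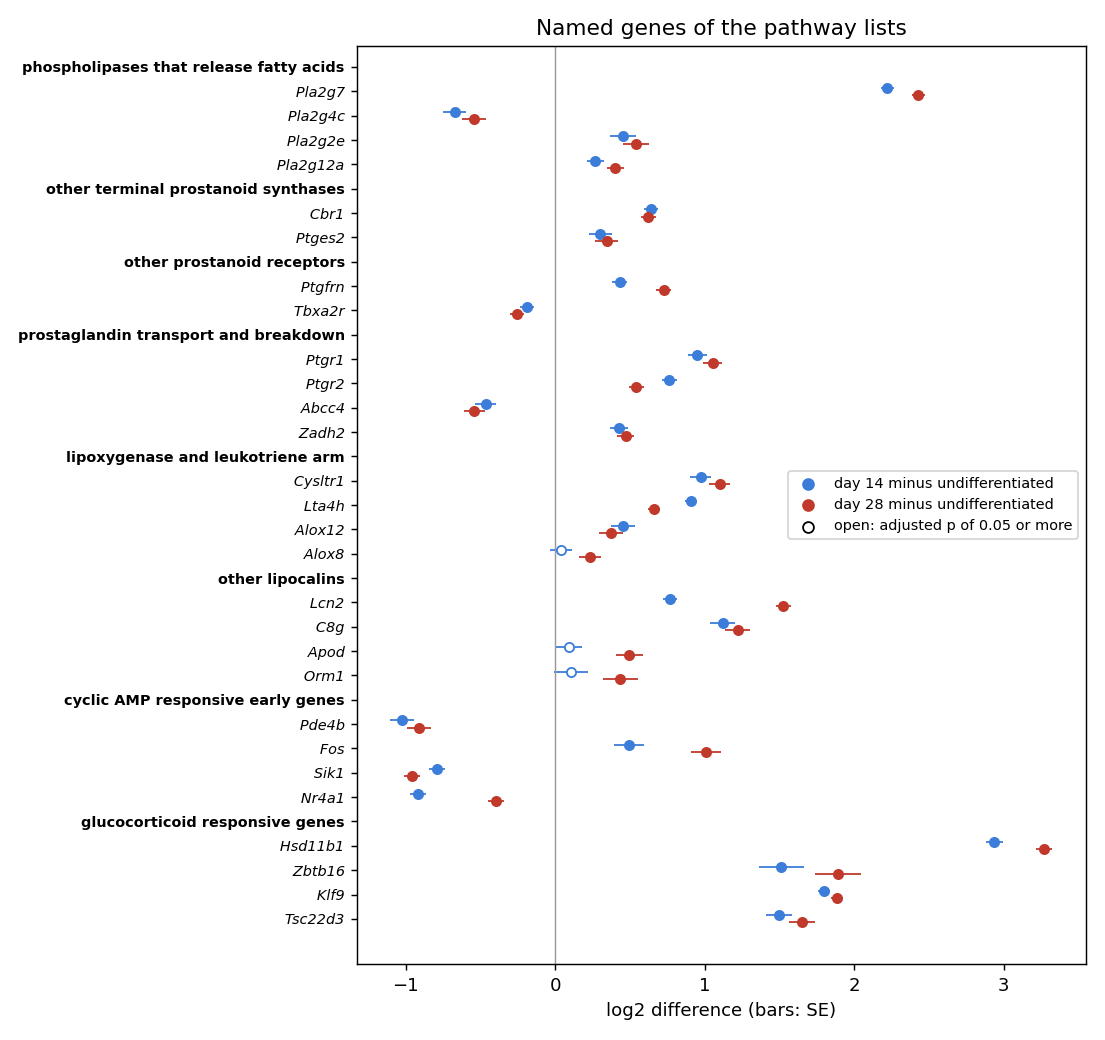
Log2 differences (x axis, bars for the SE) of the named genes of each pathway list at day 14 and at day 28 against undifferentiated cells, with open points where the adjusted p was 0.05 or more. Most points of the prostaglandin and leukotriene lists lie within 1.1 of 0, and Pla2g7 at 2.22 and 2.43 lies furthest from 0 outside the glucocorticoid list.

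Markers of the stromal lineage and of other cell types were read beside these results, against the same shares of all genes (18.2% up and 17.5% down at day 14, 20.4% up and 19.5% down at day 28). Of 9 stromal markers measured, 3 rose and 2 fell at both times. Pdgfra rose by 1.27 and 1.42 and Nt5e by 2.21 and 2.70 on the log2 scale, Pdgfrb rose at day 14 and Thy1 at day 28, and Col1a1 and Cxcl12 fell at both. The mean of the stromal list ran from -0.36 to -0.29 in undifferentiated arrays, from -0.01 to 0.02 at day 14 and from 0.07 to 0.08 at day 28. Of 7 adipocyte markers, 2 rose and 0 fell at both times: Fabp4 by 3.50 and 3.63 and Lpl by 0.42 and 0.71, while Adipoq, Plin1, Cidec, Pparg and Lep passed no test. A single adipocyte marker, 1 of 7, rose at day 14 with quantile normalization again. The mean of the adipocyte list ran from -0.61 to -0.50 in undifferentiated arrays. It ran from -0.02 to 0.02 at day 14 and from 0.01 to 0.09 at day 28. That mean rests mostly on Fabp4, at -3.43 in undifferentiated cells. Of 6 chondrocyte markers, 1 rose at day 14, 3 rose at day 28 (2 with quantile normalization again) and 0 fell. Sox9 rose by 0.94 and 0.80, Col2a1 and Col10a1 rose at day 28, and Acan, Comp and Matn3 passed no test. The mean of the chondrocyte list ran from -0.16 to -0.13 in undifferentiated arrays, from -0.01 to 0.06 at day 14 and from 0.14 to 0.16 at day 28. Of 7 melanocyte markers, Mlana, Pmel and Mitf rose at day 14 and Mlana and Mitf at day 28, while Tyr, Tyrp1, Dct and Sox10 passed no test. Mlana rose by 4.61 and 4.22. The mean of the list ran from -0.89 to -0.81 in undifferentiated arrays. It ran from 0.02 to 0.09 at day 14 and from 0.03 to 0.05 at day 28. That mean rests mostly on Mlana and Mitf, at -4.23 and -1.42 in undifferentiated cells. Of 6 markers of meningeal fibroblasts, in which Ptgds is abundant, 1 rose and 2 fell at day 14, and 1 rose and 1 fell at day 28. Of 5 oligodendrocyte markers measured, 2 rose and 0 fell at both times. Beside Ptgis, 4 of 8 endothelial markers rose at day 14 and 5 at day 28, with Kdr at 1.91 at both, while Tek, Tie1 and Vwf passed no test. The mean of the endothelial list ran from -0.53 to -0.44 in undifferentiated arrays, from 0.02 to 0.10 at day 14 and from 0.02 to 0.05 at day 28. In the macrophage list 3 of 8 rose at each time (Cd14, Csf1r and Cd68), while Ptprc, Adgre1, Itgam, Lyz2 and Fcgr1 passed no test. Of the 7 mast cell markers 0 were called at either time with limma, and 0 had an unadjusted p under 0.05. The part of any such cells in the prostaglandin genes was not tested.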

How the data were processed

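The deposited table holds log2 values of 33794 probe sets on 9 arrays. Per the submitters' processing notes the authors used RMA, and for its software, version and centring the details are not given in these sources. Every probe set has a median of 0, the log base is assumed from RMA's usual scale, and a higher value is assumed to mean more RNA. Between 15.2% and 28.1% of an array's values are exactly 0. Probe sets with 1 gene in the annotation table (23521, while 1814 had several genes and 8459 none) were averaged per gene, which gave 22180 genes.

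Differences were fitted in limma 3.58.1 (R 4.3.3) on group means of all 9 arrays with empirical Bayes variances, and p-values were adjusted by Benjamini-Hochberg over all 22180 genes. Calls needed an adjusted p below 0.05. The series text calls the arrays independent replicates, and no pair of arrays was identical. Of the steps, only the fit was tested on simulated data, with independent noise and for day 14 against undifferentiated cells.

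The genes and lists were chosen with earlier results of these data known. Named genes are the 10 genes, up to 4 called genes per list with the largest difference, the 5 genes nearest to Ptgds and the 3 nearest to each other gene called at both times, with Mki67 and Fkbp5. Gene-model, clone, pseudogene and small-RNA names were not eligible as nearest genes. Pla2g4a, Slco2a1, Hpgds, Ptgdr, Hpgd and the cell type markers named were picked for their roles, after their values were seen. Alternatives were another probe set rule, normalization again, the arrays in the fit, a replicate block, a robust prior, a filter on ties, other thresholds and leaving out each array.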

Additional observations from a re-analysis of the deposited data

Results flagged for a closer look

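The change from undifferentiated cells differed between the induced times, by limma's test of day 28 against day 14, in Ptgs2 among the genes of the set: 0.57 on the log2 scale (adjusted p = 0.000161), with -0.63 at day 28 and -1.19 at day 14. It also differed in 9 of the 28 named list genes, where 7.39% of all genes were called. Those 28 were named for having the largest called differences of their lists, so 9 is not a share of the lists. The late difference was 0.76 for Lcn2, 0.52 for Nr4a1, 0.51 for Fos, 0.41 for Apod, 0.33 for Hsd11b1, 0.29 for Ptgfrn and 0.21 for Pla2g7, and it was -0.24 for Lta4h and -0.22 for Ptgr2. Their limma adjusted p-values ran from 1.54e-05 (Lcn2) to 0.0297 (Ptgr2). With quantile normalization again the late difference was 1.36 for Nr4a1, 0.77 for Fos, -0.57 for Lta4h and -0.51 for Ptgr2. Ptgs2 and Nr4a1 fell less at day 28 than at day 14, and Lta4h and Ptgr2 rose less.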

How the results depend on the processing

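Over 18 alternatives, the 3 genes called against undifferentiated cells (Ptgs2, Ptgis and Ptger4) kept their directions. Only quantile normalization again and leaving out an array changed the sizes of their differences. The other alternatives left these differences the same, so they say nothing about direction. Against a 1.5-fold change (limma's treat) 2 of 7 genes were called at day 14, 1 at day 28 and 0 between the induced times, where a stricter question is asked. After quantile normalization again, 3, 2 and 1 genes were called. The range of log2 differences over the alternatives was -1.89 to -1.17 for Ptgs2 at day 14, -0.67 to -0.35 at day 28 and 0.52 to 1.54 between the induced times. It was 0.40 to 0.71 and 0.44 to 0.75 for Ptgis at day 14 and day 28. For Ptger4 it was -1.15 to -0.71 and -1.13 to -0.64. Quantile normalization again also changed the spread of the log2 differences of all genes. Their SD went from 0.459 to 0.303 at day 14, from 0.535 to 0.391 at day 28 and from 0.148 to 0.234 between the induced times. The shifts of single genes are to be read beside these, since forcing the same spread on centred values changes such differences by itself. How much of each shift comes from that was not tested. Leaving out each array gave 3 calls at day 14, 3 to 4 at day 28 and 1 between the induced times; the fourth call at day 28 was that of Ptges. Correlations of the deviations of same-numbered arrays ran from -0.14 to 0.07. They show little shared by replicate number, and cannot say whether the cultures were paired. With a replicate block the counts were 3, 3 and 1. Of all genes, 1390 were then called between the induced times, against 1639 without it. Of the 28 named list genes, quantile normalization again ended 4 of 25 calls at day 14 (Pla2g12a, Ptges2, Tbxa2r, Fos), 3 of 28 at day 28 (Alox12, Alox8, Nr4a1) and 0 of 9 between the induced times, and turned the sign of 0 called values. Genes called up at day 28 numbered 5 after it against 8 before among the phospholipases, and 2 against 4 in the lipoxygenase arm. They numbered 1 against 3 among cyclic AMP genes and 2 against 5 among endothelial markers. These are counts of calls, and whether the genes are the same was not counted.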
